A study of Rattus norvegicus with 18 samples.

Results

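Transcripts of the ubiquitin-proteasome system were examined in the testes of Wistar rats aged 8 weeks after chronic sleep restriction (CSR) and in control testes, with 3 RNA-seq libraries in each group. Members were taken by symbol from the 7016 RefSeq transcripts of the deposited table: every transcript whose symbol starts with Psma to Psmg, with Ube2, or with Uba or Usp followed by a digit. The rule gave 89 transcripts of 89 genes, namely 41 with a Psm name, 5 with a Uba name, 21 with a Ube2 name and 22 with a Usp name. Of these, *Psmc3ip*, a meiotic recombination cofactor, *Psme3ip1*, a partner of a proteasome activator, and *Usp6nl*, a GTPase-activating protein of membrane traffic, share a name with the family and are neither proteasome subunits nor deubiquitinases. The CSR and control rats carry the same labels for strain, tissue and age, and the labels used here give no protocol or duration for the restriction. Whether each library is from a separate animal is not stated, and the submitters' codes of control libraries 1 and 2 differ in the last digit only, so the spread behind each p-value is that between libraries and may be technical.

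Ubiquitin is a small protein that is joined to other proteins as a mark. An activating enzyme (E1) charges it, a conjugating enzyme (E2) carries it, and a ligase (E3) passes it to the target, while deubiquitinases such as the Usp proteases take it off again. Proteins with ubiquitin chains are unfolded by the ATPases of the 19S regulatory particle and cut inside the 20S core, a barrel of alpha and beta rings. In the testis this system is known for the removal of histones and of cytoplasm while spermatids are remodelled, and germ cells have a core subunit of their own, encoded by *Psma8*.

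Values are FPKM (fragments scaled to transcript length and to the mapped fragments of a library), a measure per length that allows levels of different genes to be compared. The medians of the 6 libraries over all transcripts lay between 3.69 and 3.97 FPKM, and their read depth is unknown. Between 1000 and 1415 transcripts were listed at 0 in the CSR libraries, against 275 to 423 in the control libraries. Among the members, 10, 10 and 11 were listed at 0 in CSR libraries 1 to 3, against 5, 3 and 7 in control libraries 1 to 3. An exact 0 in such a table can be a failed estimate, so levels at 0 are given as listed. Testis identity was clear from germ cell markers: summed over 5 of 7 listed elongating spermatid genes, the level was 15930, 18710 and 16660 FPKM in CSR and 9114, 10490 and 17130 FPKM in control. Of the 89 members, 79 had a mean above 1 FPKM and 12 a mean above 50 FPKM.

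No ubiquitin-proteasome transcript passed the test of CSR against control. Of the 89 members, 76 reached 1 FPKM in 3 or more libraries and were tested with limma on log2(FPKM + 1), with Benjamini-Hochberg adjustment over all 5657 transcripts tested, and 0 of the 76 had an adjusted p under 0.05, where 0.442% of all tested transcripts did. At an unadjusted p under 0.05 there were 2 members higher in CSR, *Psma3* and *Usp20*, against 5.90% of all transcripts in that direction, and 6 lower, *Psma4*, *Psmd12*, *Psmd2*, *Psmg2*, *Uba6* and *Ube2d2b*, against 7.32%. Together these 8 are 10.5% of the 76 tested members, where 13.2% of all tested transcripts had such a p. The groups did not overlap at 4 tested members higher in CSR (8.96% of all tested transcripts) and at 6 lower (12.6%). The log2 ratio is the log2 fold change, the difference of mean log2(FPKM + 1), CSR minus control. Its median was -0.04 over the tested members and -0.06 over all tested transcripts. Of the tested members, 33 were above 0, against 44.0% of all tested transcripts, and 43 below. At the unadjusted threshold 2.63% of the tested members were higher and 7.89% lower. Without overlap 5.26% were higher and 7.89% lower, so no share stood clearly above that of all tested transcripts.

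**Figure D1:**
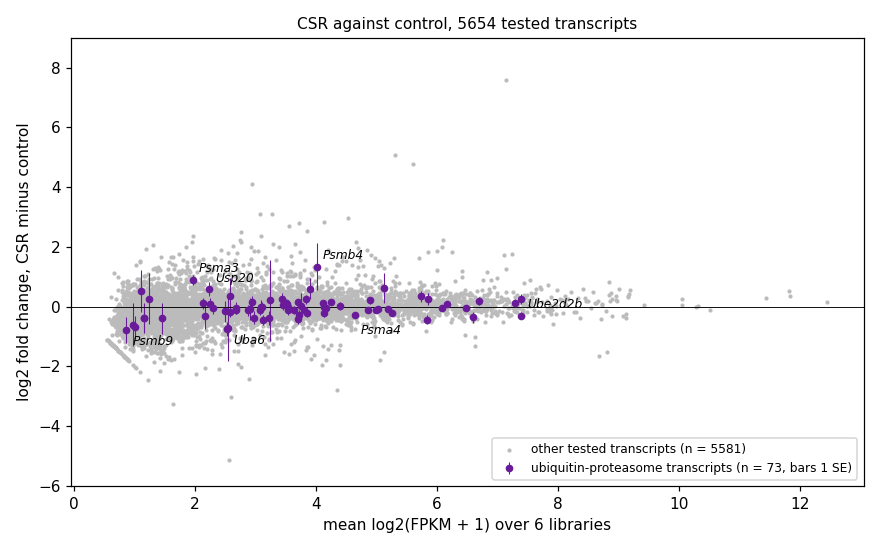
The log2 ratio (CSR minus control) of each tested transcript is plotted against its mean log2(FPKM + 1) over 6 libraries; purple points are 73 of the 76 tested ubiquitin-proteasome members with bars of 1 standard error (SE), grey points the other 5581 transcripts. Most members lie close to 0; *Psmb4* lies at 1.33 with a wide bar, and *Psma3* at 0.89 and *Uba6* at -0.74 with narrower ones.

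The alpha ring forms the gate of the core. Of 8 alpha subunit transcripts, *Psma3* had a positive log2 ratio and 7 a negative one, *Psma7* at only -0.01, with a median of -0.16. *Psma3* (NM_017280) read 4.73, 4.36 and 3.88 FPKM in CSR and 2.22, 1.71 and 1.68 FPKM in control. All CSR libraries lay above all control libraries, and the log2 ratio of 0.89 with a SE of 0.17 had the smallest adjusted p of any member, 0.15. *Psma4* (NM_017281), the most abundant of the ring, went the other way, with 21.1, 20.8 and 22.8 FPKM in CSR against 28.4, 25.1 and 26.3 FPKM in control. Its log2 ratio was -0.29 (SE 0.09, adjusted p 0.363 by limma). *Psma1* had 12.4 ± 0.988 FPKM in CSR and 14.7 ± 0.681 FPKM in control (SD, n = 3 each) without overlap, while *Psma2* had 12.5 ± 1.21 and 13.4 ± 0.573 FPKM and overlapped.

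The other alpha subunits overlapped between the groups, germ cell *Psma8* included. *Psma8* read 11.3, 9.93 and 9.72 FPKM in CSR and 14.9, 17.0 and 10.5 FPKM in control. Control library 3 stood next to the CSR libraries here, and the log2 ratio of -0.40 (SE 0.19) had an adjusted p of 0.389. *Psma7*, the paralog that *Psma8* replaces in spermatocytes and spermatids, stood at 7.76 ± 1.80 FPKM in CSR and 7.70 ± 0.174 FPKM in control. *Psma6* read 7.43, 7.85 and 6.41 FPKM in CSR and 10.4, 12.8 and 6.87 FPKM in control. *Psma5* had 6.39 ± 1.68 and 7.28 ± 3.46 FPKM. Summed over the alpha transcripts, *Psma7* and *Psma8* both counted, the level was 88.7, 82.2 and 76.7 FPKM in CSR. In control it was 95.3, 104 and 88.3 FPKM.

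Promoter sequence is shown for *Psma3*, *Psma4* and *Uba6*, the members with the smallest unadjusted p, as background to where regulators of proteasome genes are known to act. The 250 bases before each RefSeq start are printed 5′ to 3′ on the gene's strand, with coordinates in the GRCr8 build, which is not the rn6 build used for the FPKM values. All 3 genes are on the plus strand. Capitals mark matches on either strand to the antioxidant response element core, TGACNNNGC, through which Nfe2l1 is known to act on proteasome genes, and to the motif of nuclear respiratory factor 1, which is GCGC and TGCGC with any 1 base between them.
*Psma3*, chr6:95219499-95219748: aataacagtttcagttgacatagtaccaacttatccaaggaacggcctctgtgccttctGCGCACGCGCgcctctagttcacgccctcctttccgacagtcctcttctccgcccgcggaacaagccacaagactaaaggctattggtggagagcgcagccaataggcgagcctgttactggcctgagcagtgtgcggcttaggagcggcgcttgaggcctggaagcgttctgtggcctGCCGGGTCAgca
*Psma4*, chr8:64236270-64236519: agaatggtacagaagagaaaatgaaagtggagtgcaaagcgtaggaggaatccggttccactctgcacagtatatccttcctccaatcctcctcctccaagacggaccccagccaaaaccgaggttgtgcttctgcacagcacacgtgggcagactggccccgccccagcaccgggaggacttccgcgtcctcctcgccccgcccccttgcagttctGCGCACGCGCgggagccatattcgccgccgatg
*Uba6*, chr14:22238582-22238831: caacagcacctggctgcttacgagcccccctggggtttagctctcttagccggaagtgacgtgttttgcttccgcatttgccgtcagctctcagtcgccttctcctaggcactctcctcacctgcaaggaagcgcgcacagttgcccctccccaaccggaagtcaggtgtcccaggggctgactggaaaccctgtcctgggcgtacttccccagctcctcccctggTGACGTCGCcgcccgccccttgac
*Psma3* and *Psma4* both hold the nuclear respiratory factor 1 motif, and *Psma3* and *Uba6* both hold the response element core. None of the 3 genes passed the adjusted threshold, and a link between motif and level was not tested. In the 76 members with a promoter entry, 10 held the response element core, or 13.2%, against 10.1% of 33469 promoters of the same length. The nuclear respiratory factor 1 motif was in 10 members, or 13.2%, against 3.75% of all promoters. A CCAAT box, CCAAT on either strand, was in 29 members, or 38.2%, against 34.0%. Among the 37 with a Psm name the shares were 10.8%, 10.8% and 51.4% for the same motifs in that order. Matches of different motifs overlapped in 1 member promoter. Such matches describe letters in a window and no binding.

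The beta ring carries the cutting sites. *Psmb5*, which encodes the chymotrypsin-like site, was the most abundant of 7 beta transcripts and among the steadiest, with 33.3, 29.7 and 28.6 FPKM in CSR and 32.7, 32.7 and 31.5 FPKM in control. *Psmb7*, which encodes the trypsin-like site, had 16.8 ± 2.27 FPKM in CSR and 17.1 ± 0.703 FPKM in control. *Psmb1*, a structural beta subunit, had 20.5 ± 2.92 and 20.0 ± 1.80 FPKM. *Psmb3*, another structural subunit, had 12.7 ± 1.26 and 11.4 ± 0.921 FPKM. None of these groups was separate. *Psmb6l1*, named as a copy of the caspase-like subunit gene *Psmb6*, had 5.16 ± 0.393 FPKM in CSR and 5.66 ± 0.854 FPKM in control; reads that near-identical copies could share make its level uncertain.

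*Psmb4* (NM_031629), a structural beta subunit, was split within the controls. It read 27.0, 23.8 and 23.2 FPKM in CSR, and 36.6, 3.34 and 5.43 FPKM in control libraries 1 to 3. Control library 1 was the highest of all libraries and control libraries 2 and 3 were far under every CSR library. The log2 ratio of 1.33 had a SE of 0.78 and an adjusted p of 0.435. Without control library 1 it was 2.28 with a SE of 0.21 and an adjusted p of 0.051. It was 0.72 without control library 2 (adjusted p 0.731) and 1.00 without control library 3 (adjusted p 0.53), so it did not pass the threshold in any of these fits. *Psmb2*, also structural, was low in a CSR library instead, with 18.1, 18.3 and 5.83 FPKM in CSR and 11.9, 10.8 and 14.4 FPKM in control.

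Immunoproteasome subunits, which replace the cutting subunits mainly in immune cells, were near the floor. *Psmb8* read 2.10, 0 and 1.41 FPKM in CSR and 1.37, 1.61 and 1.62 FPKM in control. *Psmb9* was listed at 0 in CSR libraries 1 and 2, at 1.69 FPKM in CSR library 3, and at 1.63, 1.04 and 1.55 FPKM in control. *Psmb10*, which did not pass the filter on low values, read 1.41, 0 and 0.580 FPKM in CSR and 0.960, 0.911 and 1.34 FPKM in control. CSR library 2 was at 0 for all 3. Summed over 3 of 6 listed macrophage and immune markers, the level was 9.16, 8.76 and 6.45 FPKM in CSR and 14.0, 10.9 and 12.0 FPKM in control, and whether it bears on these subunits was not tested. In bulk tissue, fewer cells of a type and less RNA per cell cannot be told apart.

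Transcripts of the 19S ATPases, which form the unfolding ring at the base of the regulatory particle, were the most abundant of the structural groups, with a median of 53.2 FPKM over 5 members against 10.4 FPKM for the alpha and 16.9 FPKM for the beta ring. The ring holds its subunits in equal number, but their transcript levels ran from 10.6 FPKM for *Psmc4* to 169 FPKM for *Psmc3*. *Psmc3* read 189, 184 and 174 FPKM in CSR and 117, 160 and 188 FPKM in control. *Psmc5* read 60.5, 60.7 and 56.3 FPKM in CSR and 38.3, 42.5 and 61.0 FPKM in control. In both, control libraries 1 and 2 were the lowest and control library 3 was level with CSR. *Psmc1* and *Psmc2* did not share this: *Psmc1* had 34.7 ± 2.15 FPKM in CSR and 36.3 ± 1.19 FPKM in control. *Psmc2* had 65.2 ± 1.66 FPKM in CSR and 67.7 ± 5.40 FPKM in control. *Psmc4* had 10.9 ± 1.05 and 10.3 ± 1.93 FPKM. It read 9.79, 11.9 and 10.9 FPKM in CSR and 9.70, 8.83 and 12.5 FPKM in control. Control libraries 1 and 2 were the lowest here too, by a narrow margin, and control library 3 was the highest.

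Of 11 transcripts with a Psmd name, 4 had a positive and 7 a negative log2 ratio, with a median of -0.10. They encode non-ATPase subunits of the 19S particle, except *Psmd5*, which encodes a chaperone. *Psmd8*, a lid subunit and the most abundant, read 95.1, 85.0 and 82.0 FPKM in CSR and 85.6, 91.0 and 91.2 FPKM in control, with overlap. *Psmd2*, a large scaffold subunit of the base, read 54.3, 48.3 and 41.6 FPKM in CSR and 68.8, 74.5 and 53.5 FPKM in control. Its groups overlapped by a small margin between CSR library 1 and control library 3, and the log2 ratio of -0.44 (SE 0.16) had an adjusted p of 0.363. *Psmd12*, a lid subunit, was lower without overlap, with 34.8, 34.7 and 34.1 FPKM in CSR and 41.6, 42.0 and 38.0 FPKM in control, a log2 ratio of -0.22 (SE 0.08, adjusted p 0.363 by limma). *Psmd3*, also of the lid, was higher without overlap, with 20.6, 18.4 and 18.2 FPKM in CSR and 15.6, 17.1 and 18.0 FPKM in control, and its adjusted p was 0.459.

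Receptor and deubiquitinase subunits of the particle overlapped. *Psmd4*, a ubiquitin receptor, had 10.9 ± 0.710 FPKM in CSR and 9.98 ± 0.519 FPKM in control. *Psmd14*, which cuts ubiquitin chains off substrates at the lid, had 6.00 ± 0.944 and 8.18 ± 2.16 FPKM. *Psmd1*, the other large scaffold subunit, had no group pattern but a split across both groups: 17.7, 21.2 and 1.52 FPKM in CSR and 21.7, 20.4 and 0.394 FPKM in control. Library 3 of each group was low. *Psmd6*, *Psmd7* and *Psmd13* had means between 10.8 and 16.7 FPKM and log2 ratios of -0.22, 0.24 and -0.10.

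*Psmf1*, an inhibitor of the core, read 175, 160 and 152 FPKM in CSR and 130, 150 and 167 FPKM in control. It was far more abundant than *Psme3* and *Psme1*, the only activator transcripts among the members. The activator genes *Psme2* and *Psme4* were not among the members, so their levels are not known here. *Psme3*, a nuclear activator, had 10.6 ± 1.26 FPKM in CSR and 10.6 ± 0.211 FPKM in control, and *Psme1*, a subunit of the interferon-inducible activator, had 3.60 ± 0.752 and 3.23 ± 0.207 FPKM. *Psmf1*, *Psme3* and *Psme1* all overlapped between the groups. Of the chaperones that build the core, *Psmg2*, which helps to assemble the alpha ring, was lower without overlap, with 7.23, 7.01 and 5.26 FPKM in CSR and 9.63, 9.78 and 8.26 FPKM in control, a log2 ratio of -0.45 (SE 0.16, adjusted p 0.363 by limma). *Psmg4*, another core chaperone, had 10.2 ± 1.58 and 9.85 ± 0.705 FPKM. *Psmd5*, a chaperone of the 19S base, was near the floor at 0.773, 1.27 and 0 FPKM in CSR and 1.77, 2.07 and 0.993 FPKM in control. Summed over the 39 proteasome transcripts, the level was 1078, 1025 and 943.5 FPKM in CSR and 972, 1020 and 1009 FPKM in control.

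**Figure D2:**
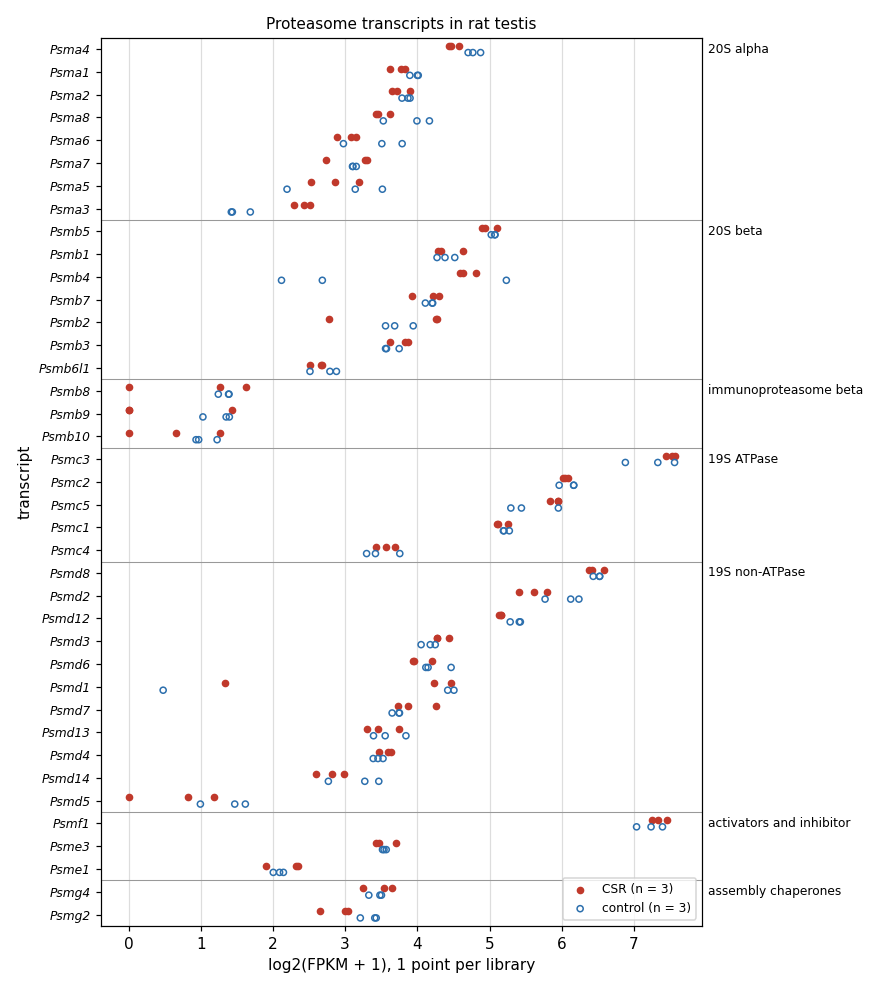
Each proteasome transcript is a row, grouped by role and ordered by mean level; each point is the log2(FPKM + 1) of 1 library, with the 3 CSR libraries as filled and the 3 control libraries as open circles. Groups are separate at *Psma3*, *Psma4*, *Psma1*, *Psmd12*, *Psmd3* and *Psmg2*, and 1 or 2 libraries stand far out at *Psmb4*, *Psmb2* and *Psmd1*.

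E1 transcripts were low and close in level, with means between 4.89 and 5.74 FPKM. *Uba6*, which activates ubiquitin and the ubiquitin-like protein FAT10, was lower in CSR without overlap, with 4.40, 3.66 and 2.54 FPKM in CSR and 7.58, 7.36 and 4.82 FPKM in control. The log2 ratio of -0.74 (SE 0.24) had an adjusted p of 0.363. *Uba1*, the main E1 of ubiquitin, read 9.47, 1.62 and 10.2 FPKM in CSR and 5.04, 5.15 and 2.97 FPKM in control. CSR library 2 was the lowest and the other CSR libraries the highest, so its groups overlapped. *Uba3*, the catalytic E1 subunit for NEDD8, had 4.41 ± 0.787 FPKM in CSR and 5.38 ± 2.61 FPKM in control.

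Of the 19 E2 transcripts of ubiquitin, 15 were tested, 8 with a positive and 7 with a negative log2 ratio, and none passed. *Ube2d2b* (NM_031001), an E2 described in rat as induced during spermatogenesis, was the most abundant, with 156, 146 and 148 FPKM in CSR and 197, 200 and 160 FPKM in control. It was lower in CSR without overlap, control library 3 lying nearest to CSR, with a log2 ratio of -0.30 (SE 0.11, adjusted p 0.365 by limma). Reads shared with its close relative *Ube2d2* cannot be told apart here. *Ube2s*, which extends chains on targets of the anaphase-promoting complex, read 123, 105 and 104 FPKM in CSR and 88.4, 88.7 and 113 FPKM in control. *Ube2c*, which starts those chains, had 31.1 ± 1.73 FPKM in CSR and 26.9 ± 3.78 FPKM in control. *Ube2j1*, an E2 of the endoplasmic reticulum, had 73.1 ± 4.72 and 69.0 ± 6.59 FPKM.

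*Ube2b*, whose loss makes male mice infertile, stood at 3.37, 3.58 and 4.82 FPKM in CSR and 2.91, 3.46 and 4.60 FPKM in control, with a log2 ratio of 0.08 (SE 0.21). Its paralog *Ube2a* did not pass the filter and was lower in CSR without overlap, with 0.559, 0 and 0.548 FPKM in CSR and 1.06, 0.717 and 0.638 FPKM in control. *Ube2q1* was higher without overlap, by a narrow margin, with 17.2 ± 0.691 FPKM in CSR and 15.7 ± 0.640 FPKM in control and an adjusted p of 0.523. *Ube2l3*, an E2 of RING-between-RING ligases, was listed at 30.4 FPKM in CSR library 2 and at 0 in the other 5 libraries. *Ube2m*, which conjugates NEDD8, read 43.8, 43.5 and 39.4 FPKM in CSR and 10.8, 42.5 and 41.8 FPKM in control, low in control library 1 alone.

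Deubiquitinases were low in level, with a median of 2.08 FPKM over 21 transcripts, and 8 of them did not pass the filter on low values. *Usp1*, which removes ubiquitin from the repair proteins FANCD2 and PCNA, was the most abundant, with 87.9, 93.4 and 72.7 FPKM in CSR and 106, 136 and 86.8 FPKM in control. Control library 3 lay within the CSR range. *Usp20* was higher in CSR without overlap, with 3.61, 4.97 and 5.92 FPKM in CSR and 2.08, 3.33 and 3.31 FPKM in control, a log2 ratio of 0.58 (SE 0.23, adjusted p 0.372 by limma). *Usp14*, which works on the proteasome and is needed for normal spermatogenesis in mice, read 9.01, 6.05 and 7.84 FPKM in CSR and 9.30, 8.23 and 5.54 FPKM in control, a log2 ratio of 0.00 with a SE of 0.23. *Usp16*, a histone H2A deubiquitinase, read 20.1, 15.9 and 16.8 FPKM in CSR and 6.53, 10.9 and 19.3 FPKM in control. *Usp47*, which has a role in DNA repair, had 29.9 ± 2.16 FPKM in CSR and 32.1 ± 1.33 FPKM in control, and *Usp42* had 16.5 ± 0.915 and 16.5 ± 1.04 FPKM.

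*Usp54* was at 0 throughout CSR and at 1.04, 0.822 and 1.37 FPKM in control, the only member of 89 with that pattern, or 1.12%, where 2.88% of the 7016 transcripts had it. No fold is given against a group at 0. *Usp24* was listed at 0 throughout CSR, with 3.69, 3.98 and 0 FPKM in control, and so was *Usp40*, with 1.77, 0.676 and 0 FPKM in control. In both, control library 3 was at 0 like the CSR libraries. Only 0.0143% of all transcripts were above 0 in every CSR library and at 0 in every control library, and no member was. *Usp5* read 0.555, 0.971 and 0 FPKM in CSR and was at 0 in all control libraries. In all, 17 of the 89 members, or 19.1%, were listed at 0 in at least 1 library, against 29.7% of all transcripts.

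**Figure D3:**
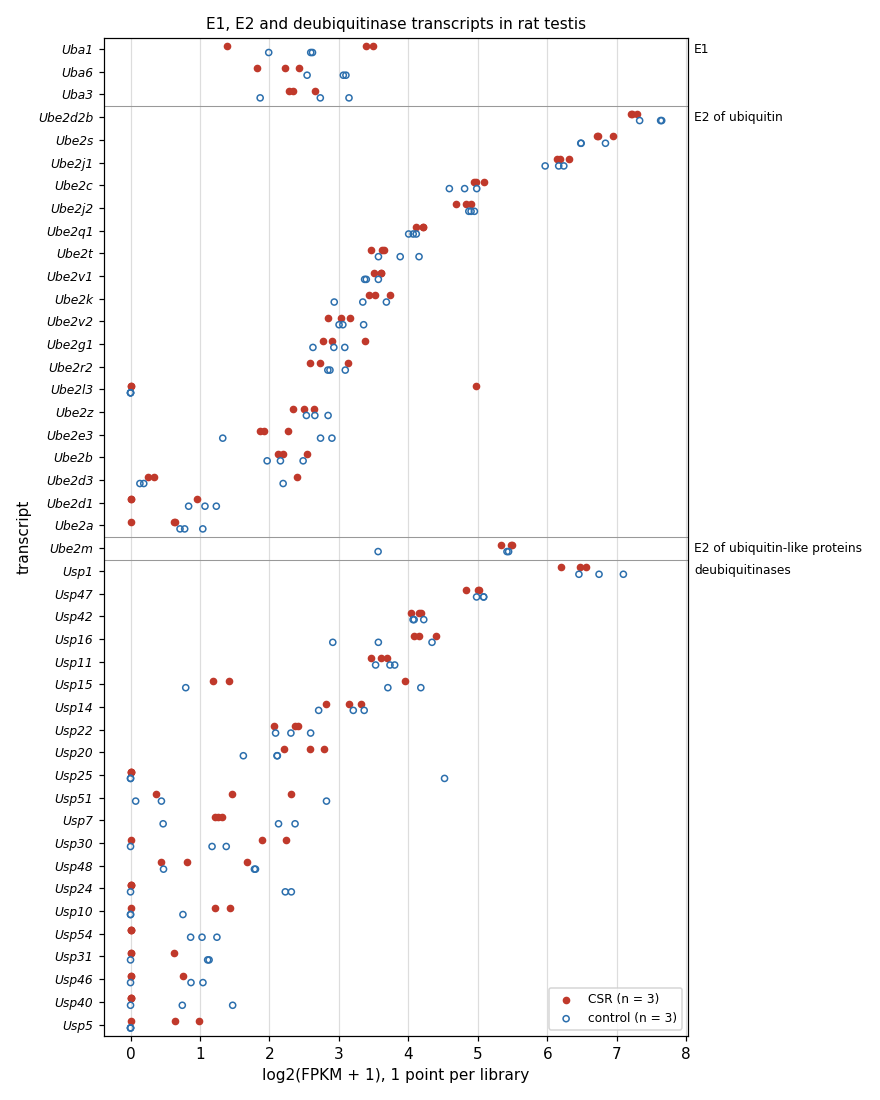
E1, E2 and deubiquitinase transcripts are rows grouped by role and ordered by mean level; each point is the log2(FPKM + 1) of 1 library, with the 3 CSR libraries as filled and the 3 control libraries as open circles. Groups are separate at *Uba6*, *Ube2d2b*, *Ube2q1*, *Usp20* and, among transcripts that were not tested, *Ube2a* and *Usp54*, and libraries at 0 gather among the deubiquitinases.

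Several members were far apart between libraries without following the groups. A gap of at least 4-fold on the FPKM + 1 scale between neighbouring libraries, a measure chosen after the values were seen, was found at 3 of the 76 tested members (*Psmd1* and *Usp15* among them), or 3.95%, against 4.28% of all tested transcripts. At 1 of the 3, or 1.32% of the tested members, the gap set a single library apart, against 2.72% of all tested transcripts. None of the 76 tested members had such a gap between CSR and control, where 0.141% of all tested transcripts did. *Usp15* read 14.4, 1.29 and 1.66 FPKM in CSR and 17.1, 12.0 and 0.735 FPKM in control. Among members outside the test, *Usp25* was listed at 22.0 FPKM in control library 3 and at 0 in the other 5 libraries, and *Ube2l3* and *Usp24* also had such a gap. Most members were even: the median coefficient of variation over the 6 libraries was 17.0% for the tested members at a median level of 11.1 FPKM, and 25.0% for all tested transcripts at a median level of 6.16 FPKM.

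**Figure D4:**
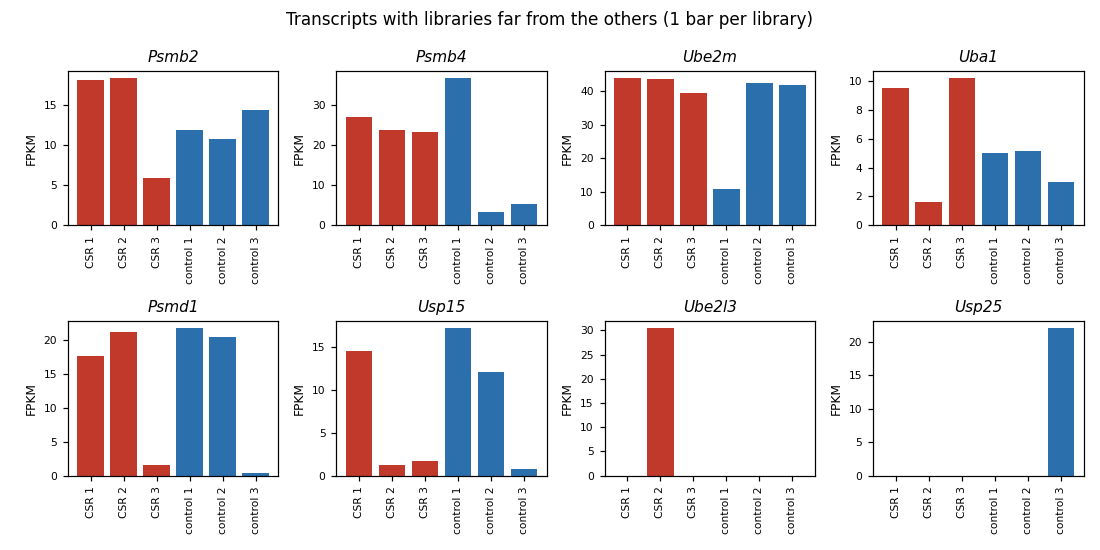
Bars give the FPKM of 8 ubiquitin-proteasome transcripts in each library, CSR in red and control in blue, on axes that start at 0. *Psmb2* is low in CSR library 3, *Ube2m* in control library 1, *Psmb4* in control libraries 2 and 3, *Psmd1* in library 3 of each group, and *Ube2l3* and *Usp25* are above 0 in 1 library each.

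Over the whole table, members included, the count of called transcripts rested on control library 3. On the log2 scale, its value was closer to the CSR mean than to the mean of control libraries 1 and 2 at 54 of 76 members, or 71.1%, and at 58.6% of all tested transcripts. Without it, 3 members had an adjusted p under 0.05 by limma, or 3.95% of those tested. Over all tested transcripts there were 259, or 4.58%, against 25 with all libraries. An unadjusted p under 0.05 was found at 20 members, or 26.3%, and at 24.3% of all tested transcripts. Without control library 3, *Psmc5* was higher in CSR with a log2 ratio of 0.54 (SE 0.08, adjusted p 0.0363), *Psmc3ip* was higher by 0.48 (SE 0.06, adjusted p 0.0298), and *Ube2d2b* was lower, at -0.40 (SE 0.06, adjusted p 0.0363). With all libraries their log2 ratios were 0.35, 0.24 and -0.30. The fit without control library 3 has only control libraries 1 and 2 on the control side. The codes of those libraries differ in the last digit only, so its small standard errors may reflect technical spread. Without control library 1, 0 members had an adjusted p under 0.05 and 2 an unadjusted one, against 0.141% and 6.31% of all transcripts. With control libraries 1 and 2 counted as 1 library, these were 0 and 3 members, against 0.124% and 6.20%. *Psmc3ip* read 61.7, 63.1 and 60.4 FPKM in CSR and 44.3, 43.9 and 72.2 FPKM in control.

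Control library 3 was also close to the CSR libraries in most markers of elongating spermatids. None of the 5 markers found was at 0 in any library, but *Prm1*, the protamine of sperm chromatin, read 3029, 2572 and 968 FPKM in CSR and 0.0934, 0.0981 and 878 FPKM in control. *Tnp2*, a transition protein, read 4111, 4329 and 3926 FPKM in CSR and 2668, 3186 and 3816 FPKM in control. *Tnp1*, another transition protein, was low in CSR library 1 as well as in control libraries 1 and 2, with 3903, 7202 and 7415 FPKM in CSR and 4298, 4411 and 7730 FPKM in control. The summed level given above was lowest in control libraries 1 and 2. Those are the libraries in which, among members picked after their values were seen, *Psmc3*, *Psmc5*, *Psmc3ip*, *Ube2s* and *Usp16* were lowest and *Psmd2*, *Psma8*, *Ube2d2b* and *Usp1* were highest. The part of these markers in the values was not tested. Over 4 of 5 listed spermatocyte markers the sum was 257, 219 and 203 FPKM in CSR and 213, 221 and 138 FPKM in control. Most of that sum was *Sycp3* and *Hspa2*. *Sycp3* overlapped between the groups and was lowest in control library 3, at 60.1 FPKM. *Hspa2*, *Pgk2* and *Ccna1* were higher in CSR without overlap. *Ccna1* read 10.7, 5.59 and 6.06 FPKM in CSR and 0.875, 0.841 and 0.735 FPKM in control, with an adjusted p of 0.0421 by limma. *Hspa2* and *Pgk2* did not pass the threshold.

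**Figure D5:**
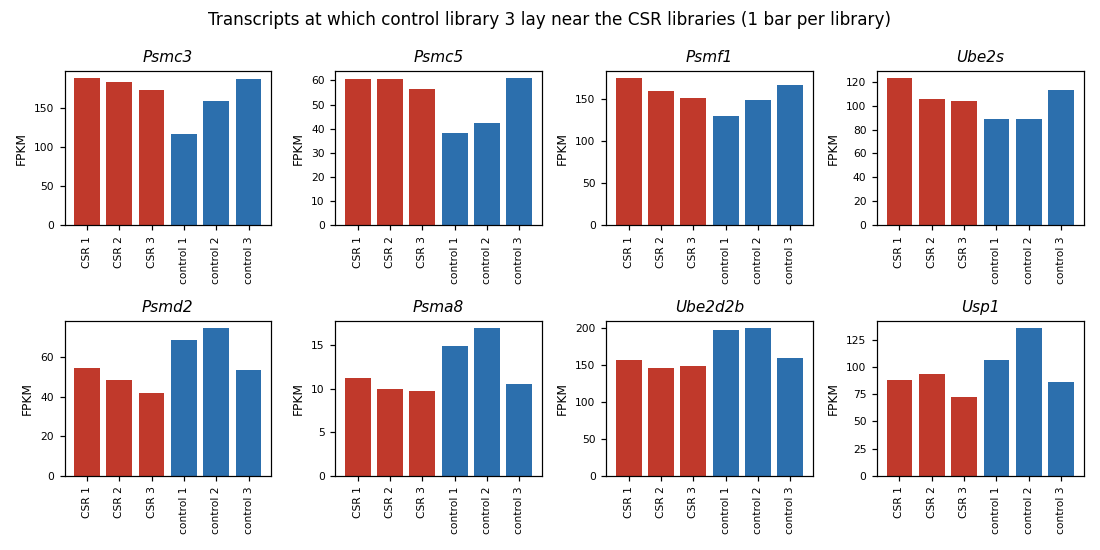
Bars give the FPKM of 8 ubiquitin-proteasome transcripts in each library, CSR in red and control in blue, on axes that start at 0. In the top row control libraries 1 and 2 lie under the CSR libraries and control library 3 does not; in the bottom row they lie above and control library 3 is the control nearest to CSR.

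Further genes of the pathway were taken from a list of 92 ubiquitin genes, adaptors, ligases and other deubiquitinases, of which 51 were in the table with 52 transcripts. Of 49 tested, 0 passed in either direction, and the median log2 ratio was -0.04, with 21 positive and 28 negative. At an unadjusted p under 0.05, 2 were higher and 2 lower in CSR, where 5.90% of all transcripts were higher and 7.32% lower, so neither count of 49 stood above the background. *Rnf114*, a ligase, was higher without overlap at 14.7, 13.0 and 12.0 FPKM in CSR and 9.17, 9.75 and 9.71 FPKM in control, with the smallest adjusted p of the list, 0.307. *Cul1*, the scaffold of SCF ligases, was also higher without overlap, at 8.71, 8.86 and 10.6 FPKM in CSR and 6.88, 4.91 and 7.66 FPKM in control. *Rnf181*, a ligase, was lower without overlap, at 32.9, 26.5 and 28.5 FPKM in CSR and 35.3, 43.1 and 35.1 FPKM in control. *Josd1*, a deubiquitinase of the Josephin family, was lower with overlap, at 8.79, 6.09 and 5.29 FPKM in CSR and 11.3, 11.7 and 8.26 FPKM in control. *Vcp*, the unfoldase that delivers substrates to the proteasome, read 19.5, 21.6 and 14.5 FPKM in CSR and 30.3, 30.9 and 20.2 FPKM in control, with an adjusted p of 0.372. *Pomp*, which matures the core, read 12.4, 7.67 and 8.29 FPKM in CSR and 7.75, 7.96 and 8.72 FPKM in control.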

How the data were processed

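Of the testis RNA-seq libraries, 3 CSR and 3 control were used; 6 CSR and 6 control bisulfite libraries of the series were not used here. The authors deposited FPKM values for RefSeq transcripts from poly(A) RNA. The tools named per the submitters' processing notes are Trimmomatic, HISAT2 and StringTie, on build rn6; no source used here gives their versions or how transcripts were chosen. Symbols came from RefSeq's GRCr8 gene table, which held 6911 of 7016 accessions and lacked 105.

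Groups came from the sample titles. Values were tested as log2(FPKM + 1) in limma 3.58.1 (R 4.3.3, variance trend on), over every transcript that reached 1 FPKM in 3 or more libraries, two-sided, and called at a Benjamini-Hochberg p under 0.05. Ratios on this scale understate the change of low transcripts. The fit was tried on simulated data with independent noise, its size taken from the CSR libraries. Every simulated library was independent, so this cannot speak to control libraries that may share an animal. Members, gene lists and tests were chosen with earlier results of these data known. Named members are the 12 with the smallest p; in each role group, the 4 most abundant and those with the lowest and highest mean; those at 0 throughout 1 group only; a list known from testis or immunoproteasome biology; and up to 6 called most often with a library left out. Others were chosen after their values were seen. Alternatives changed the pseudocount, filter, scaling, moderation, block and libraries. Promoters are RefSeq's, build GRCr8, for 76 members; 13 have no entry. A few transcripts that the rule or lists hold are counted in totals but not reported here by name.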

Additional observations from a re-analysis of the deposited data

How the results depend on the processing

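With all libraries, the count of members past the adjusted threshold was 0 under every alternative of pseudocount, filter, scaling and moderation. It was 0 to 3 with a library left out. The 3 were without control library 3, or 3.95% of the tested members, where 4.58% of all tested transcripts passed. The count at an unadjusted p under 0.05, 8 as reported, was 5 without a mean-variance trend, 3 with control libraries 1 and 2 counted as 1 library, and 2 to 20 with a library left out, with 20 without control library 3 and 2 without control library 1 or 2. Against this, 13.2% of all tested transcripts had such a p as reported, 12.6% without the trend and 6.20% with control libraries 1 and 2 as 1 library. The share of all tested transcripts was 24.3% without control library 3, 6.31% without control library 1 and 6.08% without control library 2. Without CSR library 1, 2 or 3 it was 11.9%, 9.99% and 8.29%. The median log2 ratio of the members, -0.036 with all libraries, ranged from -0.103 without CSR library 1 to -0.017 without CSR library 3. In the same fits it was -0.063 and -0.023 over all tested transcripts. The value of -0.103 lay further from -0.036 than the spread of the members' median between replicate libraries, 0.0549. The 3 members matched by name only, or the members with a 4-fold gap, were also left out, both chosen after seeing the data. This drops rows from the same fit, so the adjusted count of 0 could not change. The unadjusted count was 8 in both, and the median log2 ratio was -0.033 and -0.038.

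Same-numbered libraries did not deviate together (Pearson r across transcripts of 0.03, 0.01 and 0.04), so the numbers were not taken as pairs. With the replicate block, 0 members were called and 8 had an unadjusted p under 0.05, where 12.6% of all tested transcripts did. The median over the members was -0.04, and the count called over all transcripts was 0 against 25. Of 811 values of 48 named transcripts over 17 alternatives, 808 kept their side of the threshold, 3 passed it without control library 3, and none changed sign where both values exceeded their standard error. Read depth is unknown, so precision at low FPKM cannot be given.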

Other observations

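Gaps in a single CSR library were also seen in genes around the proteasome that are no members, chosen here after their values were seen. *Cul4b*, a ligase scaffold needed for male fertility in mice, was listed at 0, 24.1 and 24.1 FPKM in CSR and at 17.4, 18.5 and 16.6 FPKM in control. *Nploc4*, a cofactor of the unfoldase Vcp, was listed at 0, 23.0 and 22.3 FPKM in CSR and at 25.0, 30.8 and 25.3 FPKM in control. *Uchl3*, a ubiquitin hydrolase, was listed at 19.4, 11.8 and 0 FPKM in CSR and at 11.9, 12.5 and 13.4 FPKM in control. *Fzr1*, an activator of the anaphase-promoting complex, was low in a control library instead, with 21.1, 18.1 and 18.5 FPKM in CSR and 17.1, 2.03 and 21.6 FPKM in control. *Atxn3*, a deubiquitinase, spread within both groups, with 17.8, 12.4 and 31.9 FPKM in CSR and 1.19, 6.56 and 22.9 FPKM in control.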
